A study of Mus musculus with 6 samples.

Results

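The Kelch-like genes are the mouse genes whose names begin with Klhl or Kbtbd. Members were taken by name alone, as the probe sets that the array's annotation pairs with 1 such symbol, which gave 75 probe sets of 42 genes among 45037 probe sets and 18193 genes. The genes were chosen by symbol and no intensity entered that choice, but the family itself was selected on the XY against XX changes of these arrays, which were known, so its counts and medians describe it and test nothing. The tested group was 3 arrays of oocytes from B6.Y(TIR) XY females, which carry a Y chromosome of TIR origin on a C57BL/6 (B6) background and form ovaries, and the other group was 3 arrays of oocytes from their XX littermates. Each array held RNA of 10 fully grown oocytes in the germinal vesicle (GV) stage, before the first meiotic division, from a female aged 25 to 29 days that had received 5 IU of equine chorionic gonadotropin 45 to 47 hours earlier. XY and XX differ both in the Y and in the number of X chromosomes, and no other genotype was analysed here. In these oocyte pools, fewer transcripts per cell and fewer cells holding a transcript cannot be told apart.

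Kelch-like proteins combine a BTB domain with a row of kelch repeats that fold into a propeller. The BTB domain binds the scaffold protein cullin 3 (Cul3) and the propeller holds a target protein, so that a ubiquitin ligase forms around the pair and each family member sends its own targets to ubiquitination. Targets known from human cells include the mitotic kinases Aurora A, Aurora B and Plk1, components of vesicle coats, actin regulators and inhibitors of translation. Some members, among them Klhl10 in spermatids and Klhl40 and Klhl41 in muscle, are known for their restricted expression.

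Of the 42 genes, 33 passed the filter on low values, which asked that the intensity reach the median of its array on 3 or more of the 6 arrays. The remaining 9 were Kbtbd2, Klhl4, Klhl7, Klhl10, Klhl14, Klhl23, Klhl33, Klhl40 and Klhl41. Their 11 probe sets had normalized intensities of at most 35.8, beside an array median of 28.9, and none passed when all 45037 probe sets were tested without a filter (lowest adjusted p = 0.146). In that fit 2 of the 75 probe sets of the family were higher and 2 lower, where 0.719% of all probe sets were higher and 0.651% lower. Detection calls were not used here, so a value near the median is not by itself a sign of expression. Of the 33 tested genes, 26 lay at or above the median on all 6 arrays. Klhl35 passed through its XX arrays alone.

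All 15 oocyte markers on the array, such as Zp3 and Gdf9, were tested. None was higher in XY and 2 were lower, Mos and the X-linked Bmp15. The summed normalized intensity of the 15 ranged from 91561 to 97016 in XY and from 103070 to 109488 in XX. Of 13 granulosa and cumulus markers on the array 9 were tested, with Inha higher and none lower, and the sum over all 13 ranged from 1508 to 1672 in XY and from 1319 to 1606 in XX. Amh, Cyp19a1 and Lhcgr were among those that did not pass the filter. Nr5a2 made up much of the granulosa and cumulus sum, at 773, 721 and 800 in XY against 931, 940 and 710 in XX. Nr5a2 (-0.16) and Kitl (-0.63) had negative log2 changes, XY minus XX. The other tested markers of this list had positive ones, the largest in Inha (1.58) and Fshr (0.89). No marker on the array had a deposited value of 0. The sum over 5 theca and stroma markers ranged from 283 to 408 in XY and from 126 to 182 in XX. Of these, Dcn read 301, 249 and 151 in XY, against 90.8, 84.1 and 20.7 in XX, a log2 change of 1.85. Star (0.76) and Col1a2 (0.08) changed less, and none of the 3 tested markers of this list passed. For 4 blood and immune markers the sum ranged from 131 to 147 in XY and from 90.9 to 103 in XX, with Cd68 higher. For 6 male germ cell markers it ranged from 141 to 161 in XY and from 175 to 229 in XX, with Stra8 lower. Stra8 read 20.4, 6.97 and 20.8 in XY, against 38.2, 40.0 and 43.5 in XX, and so passed the filter through its XX arrays alone. Of the other tested markers of that list, Prm1 (-0.40) and Prm2 (-0.74) had negative log2 changes and Acrv1 (0.53) a positive one. For 3 Sertoli markers the sum ranged from 55.7 to 99.9 in XY and from 43.1 to 96.3 in XX. The 5′ control of Actb, a measure of RNA length, read 55.7, 62.7 and 54.7 in XY 1, XY 2 and XY 3, and 45.9, 184 and 188 in XX 1, XX 2 and XX 3, so that XX 1 resembled the XY arrays in it. The part of these differences in the results below was not tested.

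In XY oocytes 3 Kelch-like genes were higher and 5 were lower than in XX oocytes. Klhl22, which in human cells directs the kinase Plk1 off kinetochores, rose 3.88-fold. Klhl9 and Klhl13, whose human counterparts act together on Aurora B, both fell, as did Kbtbd6, Klhl15 and Klhl30, and Kbtbd12 and Klhl1 rose. Changes are differences in log2(normalized intensity + 9), XY minus XX, with limma's standard error (SE) and its p adjusted over all 12442 tested genes, taken as past the threshold below 0.05. The 3 higher genes were 9.09% of the 33 tested, where 7.86% of all genes tested were higher. The 5 lower ones were 15.2%, where 5.34% of all genes were lower. The median change of the 33 was -0.35, beside 0.07 over all genes. The difference between these medians was -0.42. It came to -0.27 with the deposited values, -0.23 with median scaling, -0.34 with trimmed mean scaling, -0.30 with a pseudocount of 32, -0.12 with no filter and -0.19 once the Actb control ratio was a covariate, and left-out arrays gave -0.44 to -0.21, with -0.21 without XY 2 and -0.24 without XX 2. The counts were 3 higher and 10 lower with median scaling, 5 higher and 3 lower with trimmed mean scaling, 2 and 2 with no filter, and 1 higher and 0 lower with the covariate. Among the XX arrays only XX 1 had an Actb ratio within the XY range. The fit with the covariate therefore cannot separate well a difference of group from a difference of ratio. Without XX 1 the counts were 4 higher and 10 lower. The lower count was 1 without XY 1, XY 2, XX 2 or XX 3 and 2 without XY 3. The share of all tested genes called in either direction moved as well. It was 13.2% in the main fit, 16.9% with median scaling and 16.1% with trimmed mean scaling. With no filter it was 5.02%, and with the covariate 1.90%. Without XX 1 it was 27.4%, and without any other 1 array it was 3.92% to 5.47%.

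**Figure D1:**
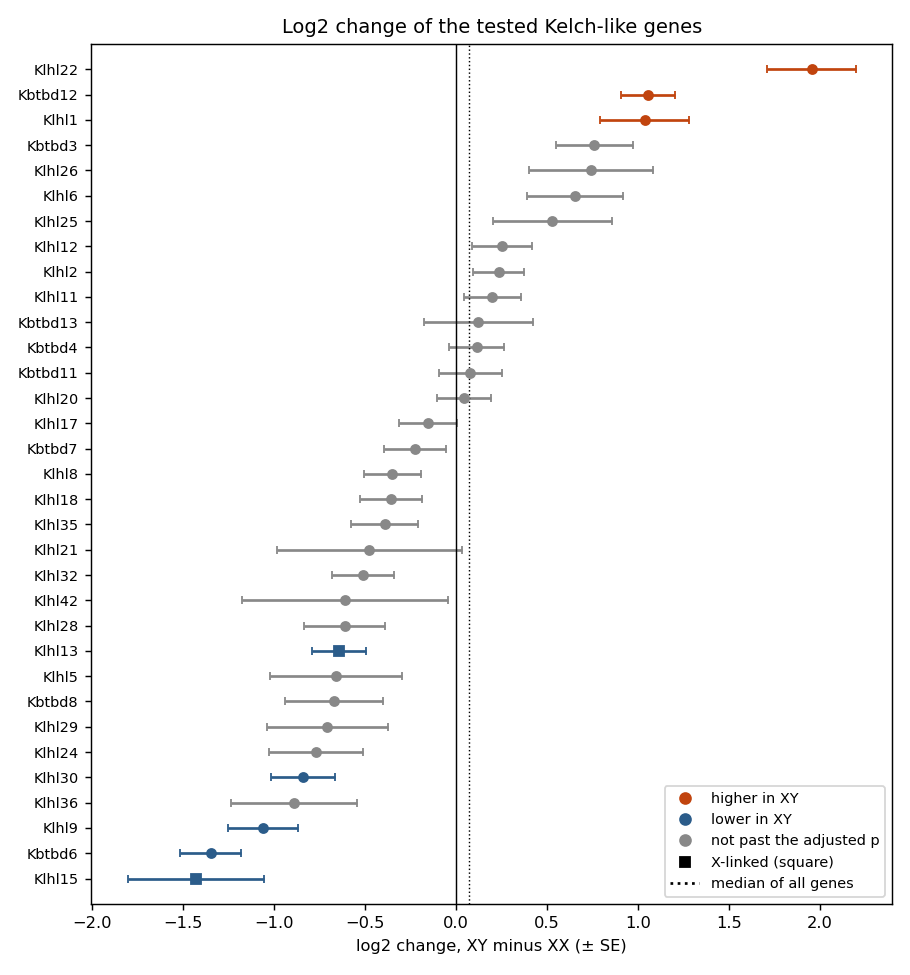
Log2 change, XY minus XX, with its SE for each of the 33 tested Kelch-like genes, from the highest at the top to the lowest, over 3 arrays a group. Orange and blue mark genes past the adjusted p, squares mark the X-linked Klhl13 and Klhl15, and the dotted line is the median of all tested genes. Klhl22 stands at 1.95 and Klhl15 at -1.43.

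Among the members known from human cells for cell division kinases, Klhl22 had normalized intensities of 1633, 1460 and 1636 in XY 1, XY 2 and XY 3, against 563, 392 and 288 in XX 1, XX 2 and XX 3. The lowest XY array lay above the highest XX array by more than the whole range of either group. The log2 change was 1.95 ± 0.24 (SE, n = 3 arrays a group, limma adjusted p = 0.00643). It passed in each of the 17 alternative settings and left-out arrays that tested it, with changes of 1.47 to 2.19. A further probe set of Klhl22 did not pass the filter and had a change of -0.27 (adjusted p = 0.684 with no filter).

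Klhl9 read 661, 737 and 857 in XY, against 1274, 1816 and 1670 in XX, a log2 change of -1.06 ± 0.19 (SE, limma adjusted p = 0.0167). Klhl13, its X-linked relative, read 3172, 3159 and 2825 in XY, against 4763, 5235 and 4342 in XX, and changed by -0.64 ± 0.15 (adjusted p = 0.0336). In both genes each XY array lay below each XX array. The call of Klhl9 ended without XY 1 (adjusted p = 0.0581), XY 2 (0.0600), XX 2 (0.0566) or XX 3 (0.0563) and once the Actb control ratio entered as a covariate (0.108). That of Klhl13 ended without XY 1 (0.0860), XY 2 (0.0992), XY 3 (0.117), XX 2 (0.0933) or XX 3 (0.0559), with no filter (0.0722) and with the covariate (0.144).

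The other adaptors of this kind did not pass. Klhl18, an adaptor of Aurora A in human cells, read 219, 283 and 239 in XY, against 299, 292 and 366 in XX (log2 change -0.36 ± 0.17, adjusted p = 0.188). Klhl21, a further adaptor of Aurora B, ranged from 7.6 to 70.7 in XY and from 37.5 to 51.3 in XX, so that its XY arrays spanned the XX range. The kinases themselves, named here for their link to these members, had log2 changes of 0.08 for Plk1 (adjusted p = 0.787), -0.07 for Aurkb (0.787) and -0.01 for Aurka (0.960), and the sign of each differed in some of the settings.

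Kbtbd6, which in human cells works with Kbtbd7 to degrade the Rac activator Tiam1, read 373, 303 and 366 in XY, against 770, 941 and 991 in XX. Every XY array was below every XX array, at a log2 change of -1.35 ± 0.17 (SE, limma adjusted p = 0.00654). The call held when any 1 array was left out and ended only with the Actb covariate among 17 settings (adjusted p = 0.0567). Kbtbd7, its neighbour on chromosome 14, read 7694, 6325 and 7073 in XY, against 7034, 9359 and 8344 in XX, with overlapping groups and a change of -0.22 ± 0.17 (adjusted p = 0.394). The probe set that stood for Kbtbd7 has the suffix of those that can match several transcripts, and the other kept one changed by -0.68 ± 0.22 (adjusted p = 0.0876 over all kept probe sets).

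Klhl15, an X-linked gene whose human protein targets a regulatory subunit of the phosphatase PP2A and the DNA end resection factor CtIP, read 160, 254 and 142 in XY, against 289, 761 and 567 in XX. The groups did not overlap, but XX 1 stood nearer to the XY mean than to the mean of XX 2 and XX 3, which held for 1 of the 8 called members. The log2 change was -1.43 ± 0.37 (SE, limma adjusted p = 0.0480). This call ended without XY 1 (0.116), XY 2 (0.0664), XY 3 (0.127), XX 2 (0.124) or XX 3 (0.134), with trimmed mean scaling (0.0503), no pseudocount (0.0647) or no filter (0.0846), and with the Actb covariate, where the change was -0.59 (0.257). The second kept probe set of Klhl15 read 58.6, 50.8 and 45.2 in XY, against 146, 177 and 185 in XX, and fell by 1.56 ± 0.17 (adjusted p = 0.00709 over all 22997 kept probe sets).

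The 3 other called members were dim. Kbtbd12 read 86.7, 79.9 and 81.4 in XY, against 35.0, 30.7 and 40.2 in XX, with an XX level close to the array median. It rose by 1.05 ± 0.15 (SE, limma adjusted p = 0.00875), a call that held without any 1 array and ended as the mean of its probe sets (0.0506) and with the Actb covariate (0.0625). The other kept probe set of Kbtbd12 read 76.2, 48.7 and 28.5 in XY, against 23.3, 14.2 and 42.9 in XX. Its groups overlapped, and its change was 0.75 ± 0.38 (adjusted p = 0.231 over all kept probe sets).

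Klhl1, known mainly as a brain protein that binds actin, read 116, 59.3 and 92.0 in XY, against 37.9, 31.2 and 43.8 in XX. Its XY arrays were spread more widely than its XX arrays, yet all lay higher. The change was 1.04 ± 0.25 (SE, limma adjusted p = 0.0363), and the call ended without XY 1 (0.0935), XY 3 (0.102), XX 2 (0.107) or XX 3 (0.0737), with no filter (0.0692) and with the covariate (0.227).

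Klhl30 read 58.7, 70.9 and 74.9 in XY, against 107, 141 and 142 in XX, with no overlap. It changed by -0.84 ± 0.18 (SE, limma adjusted p = 0.0250). The call ended without XY 1 (0.0802), XY 2 (0.0728), XY 3 (0.0602), XX 2 (0.0797) or XX 3 (0.0784), with the deposited values (0.0772), trimmed mean scaling (0.0653), no filter (0.0544) or the covariate (0.152).

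**Figure D2:**
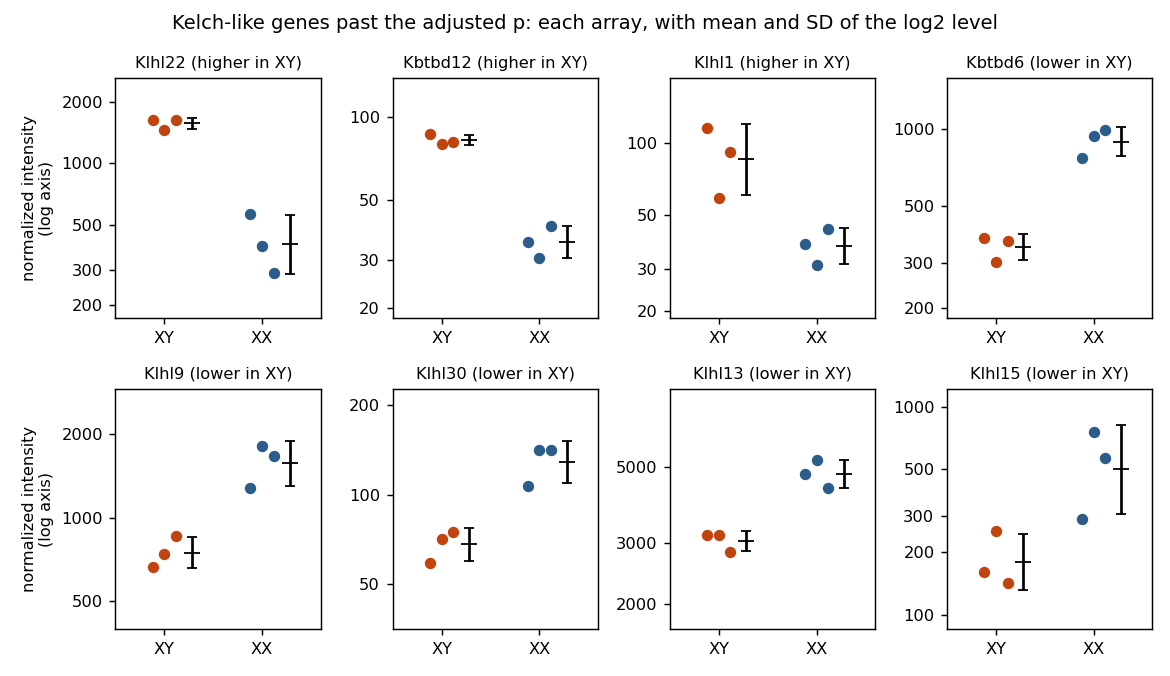
Normalized intensity on each array (log axis, a scale of its own in each panel) for the 8 Kelch-like genes past the adjusted p, with XY in orange on the left and XX in blue on the right of each panel. The bar beside each group is the mean and SD of the log2 level over 3 arrays. XY and XX arrays do not overlap in any panel, and Klhl15 has the widest XX range on the log axis, from 289 to 761.

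The start regions of 3 called members are shown because these genes went in opposite directions: Klhl22 was higher in XY, and Klhl9 and Klhl15 were lower. Each is a RefSeq window of 300 bases, from 250 before to 50 after an annotated start. The genome build is GRCm38.p6, and each window is read on the gene's strand. For Klhl15 the start used lies inside the gene, whose RefSeq span begins at chrX:94232278. Capitals mark the letters GGGCGG on either strand (CCGCCC on the opposite one), the core of the GC box of Sp1-type factors.
Klhl22 (chr16:17759371-17759670, plus strand): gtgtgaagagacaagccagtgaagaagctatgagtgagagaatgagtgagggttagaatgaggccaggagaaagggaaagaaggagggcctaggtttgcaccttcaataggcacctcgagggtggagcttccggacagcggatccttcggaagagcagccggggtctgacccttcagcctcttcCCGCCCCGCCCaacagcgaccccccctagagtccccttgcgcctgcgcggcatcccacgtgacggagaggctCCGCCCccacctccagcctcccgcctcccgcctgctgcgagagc
Klhl9 (chr4:88722459-88722758, minus strand): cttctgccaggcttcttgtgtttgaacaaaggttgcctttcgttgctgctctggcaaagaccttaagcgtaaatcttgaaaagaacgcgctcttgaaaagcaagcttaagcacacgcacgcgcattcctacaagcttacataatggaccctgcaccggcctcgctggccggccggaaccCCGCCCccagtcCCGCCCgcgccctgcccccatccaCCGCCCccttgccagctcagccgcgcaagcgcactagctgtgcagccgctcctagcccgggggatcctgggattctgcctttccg
Klhl15 (chrX:94234680-94234979, plus strand): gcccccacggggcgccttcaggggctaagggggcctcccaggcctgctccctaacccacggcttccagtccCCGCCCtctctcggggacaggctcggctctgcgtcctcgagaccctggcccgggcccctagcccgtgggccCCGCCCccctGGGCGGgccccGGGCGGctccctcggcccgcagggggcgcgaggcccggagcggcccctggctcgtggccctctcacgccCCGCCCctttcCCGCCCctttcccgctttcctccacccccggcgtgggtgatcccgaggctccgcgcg
The letters occurred 3 times in the Klhl22 window, of which a pair overlap, 3 times in that of Klhl9 and 6 times in that of Klhl15, so they were present in genes of either direction. Among all 32851 RefSeq windows of this length, 35.7% held them at least once. The letters TATAAA, searched on both strands, had no match in these 3 windows, while 13.6% of all windows held them. A like search for CCAAT had no match here and found 37.4% of all windows. The letters TAATTG were likewise without a match, and 8% of all windows held them. Other called members differed: windows of Kbtbd12 and Klhl1 held TATAAA, 1 of the Klhl13 windows held CCAAT, and that of Kbtbd12 held no GGGCGG. Over 47 windows of the family, 32 held GGGCGG, 6 TATAAA, 10 CCAAT and 2 TAATTG. RefSeq windows were found for 35 of the 42 member genes, and Klhl22 has a second window that overlaps the one shown.

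A further 7 members had an unadjusted p below 0.05 and did not pass after adjustment, as held for 19.0% of all tested genes. Kbtbd3 read 349, 349 and 289 in XY, against 249, 185 and 148 in XX, without overlap (log2 change 0.76 ± 0.21, SE, limma adjusted p = 0.0568). Kbtbd8, which in human neural crest cells marks the ribosome assembly factors NOLC1 and TCOF1, read 6634, 7650 and 5710 in XY, against 7039, 13185 and 12667 in XX. Its XX 1 array lay inside the XY range, and the change was -0.67 ± 0.27 (adjusted p = 0.135). Without XX 1 both passed, Kbtbd3 at 0.95 (0.0133) and Kbtbd8 at -0.95 (0.0129).

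Klhl24, an adaptor of keratin 14 in human skin, read 153, 170 and 170 in XY, against 188, 331 and 375 in XX (-0.77 ± 0.26, adjusted p = 0.0878). Klhl28 read 695, 826 and 816 in XY, against 876, 1498 and 1286 in XX (-0.61 ± 0.22, adjusted p = 0.108), and Klhl32 read 767, 717 and 714 in XY, against 891, 1031 and 1257 in XX (-0.51 ± 0.17, adjusted p = 0.0862). In all 3 genes XX 1 was the lowest XX array, nearer to the XY mean than to the mean of XX 2 and XX 3, and without XX 1 the adjusted p was 0.00696 for Klhl24, 0.0152 for Klhl28 and 0.0273 for Klhl32. The last of the 7 were the dim Klhl36, at 35.0, 7.48 and 24.1 in XY against 38.3, 44.7 and 51.0 in XX (adjusted p = 0.127), and Klhl6, a lymphocyte protein, at 61.7, 46.2 and 37.2 in XY against 36.9, 16.6 and 30.4 in XX (adjusted p = 0.137).

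The remaining 18 tested members had log2 changes from -0.71 to 0.74 and adjusted p from 0.173 to 0.850, with 9 positive and 9 negative. Among them, Klhl12, which in human cells enlarges the vesicle coats that carry collagen, changed by 0.25 ± 0.16 (SE, limma adjusted p = 0.322), and Klhl20, an adaptor of the death kinase DAPK1, by 0.05 ± 0.15 (adjusted p = 0.850). Klhl25, an adaptor of the translation inhibitor 4E-BP1, ranged from 520 to 1049 in XY and from 387 to 688 in XX, with XY 3 at the top (0.53 ± 0.33, adjusted p = 0.298). A dimmer kept probe set of Klhl25 read 308, 257 and 337 in XY, against 220, 130 and 162 in XX. Its groups did not overlap, and its change was 0.81 ± 0.23 (adjusted p = 0.0642 over all kept probe sets). Klhl8 read 4049, 4518 and 4373 in XY, against 5166, 5025 and 6374 in XX, and did not pass (-0.35 ± 0.16, adjusted p = 0.173) although its groups did not overlap. Over the 33 tested members the groups did not overlap in 18, 6 with XY higher and 12 with XY lower, where 38.8% of all tested genes had no overlap. The 12 include Klhl35, which passed the filter through its XX arrays alone, and Klhl36, with 1 XY array at or above the median. Such members can lack overlap partly because of how the filter admits them. These figures hold for members that passed the filter, not for the family as a whole.

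More than 1 probe set was kept for 12 members, 25 probe sets in all, and in each of the 12 genes all kept probe sets went the same way, 4 genes upward and 8 downward. Probe sets of a gene read the same RNA and are not replicates. Fitted as 22997 separate probe sets, 3 of the 46 kept ones of the family were higher and 7 were lower, where 5.08% of all kept probe sets were higher and 5.41% lower. In Kbtbd8 the dimmer probe set read 295, 280 and 286 in XY, against 431, 532 and 631 in XX, and fell by 0.85 ± 0.18 (SE, limma adjusted p = 0.0322), although the brighter one, given above, did not pass. Klhl28 likewise had a dimmer probe set that fell by 0.79 ± 0.15 (adjusted p = 0.0231), at 66.9, 64.1 and 56.5 in XY against 114, 117 and 112 in XX, while a further one changed by -0.11 ± 0.21 (0.768). In Klhl13 the dimmer probe set read 95.8, 128 and 116 in XY, against 165, 420 and 447 in XX, a change of -1.41 ± 0.37 (0.0539) beside -0.64 for the brighter one. Directions were thus shared among the kept probe sets of a gene, whereas sizes differed. How often this holds over all genes was not counted. With no filter, some probe sets that were not kept went against their gene, as in Klhl28 (0.51) and Klhl32 (0.31). Others went with it, as in Klhl1 (0.63) and Klhl18 (-0.80).

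**Figure D3:**
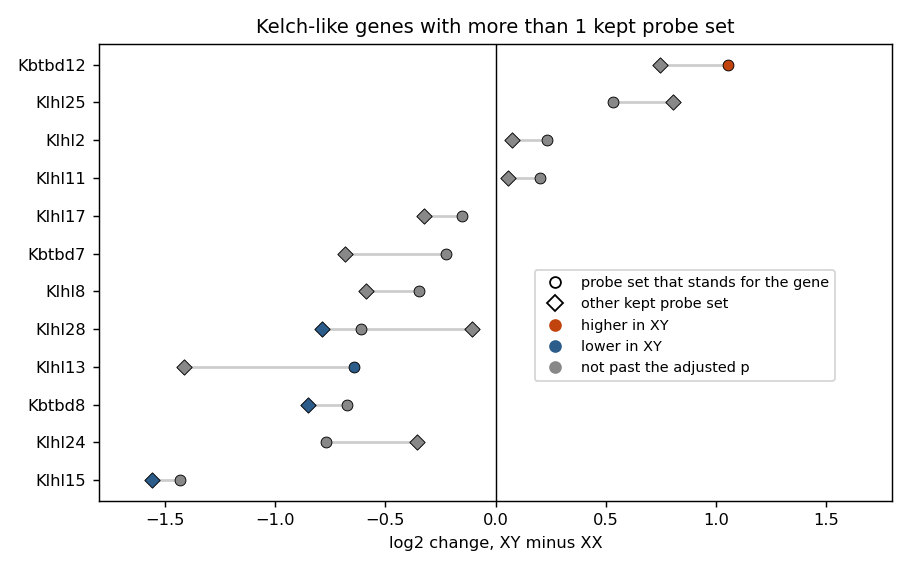
Log2 change, XY minus XX, of each kept probe set for the 12 Kelch-like genes with more than 1. Circles are the probe sets that stand for the gene and diamonds the others, coloured where past the adjusted p over all kept probe sets (orange higher, blue lower in XY). The points of each gene lie on the same side of 0. The circle of Klhl15 is not coloured, since that probe set did not pass in this fit.

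The 42 genes lie on 14 chromosomes, 3 of them on the X. Of the X-linked members Klhl13 and Klhl15 were tested and both were lower, where 25.3% of the 375 tested X-linked genes were lower and 4.27% higher. Klhl4, the third, did not pass the filter. The 31 tested autosomal members had a median change of -0.22, beside 0.08 for all tested autosomal genes, and X-linked genes had a median of -0.28. Members were direct neighbours in 3 cases. Kbtbd6 and Kbtbd7, described above, both had negative changes, whereas on chromosome 16 Klhl6 stood at 0.65 and Klhl24 at -0.77, and of Klhl10 and Klhl11 on chromosome 11 Klhl11 alone was tested (0.20 ± 0.16, SE, limma adjusted p = 0.411).

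Genes that work with the family or are related to it were described by 4 lists. Beside their counts stand the shares of all tested genes, 7.86% higher and 5.34% lower past the adjusted p, and 18.9% with positive and 13.3% with negative changes at an unadjusted p below 0.05. Of 28 tested genes of the Cul3 ligase core, which load, recycle or deconjugate the ligase, 0 were higher and 1 was lower by limma, with a median change of -0.01. At an unadjusted p below 0.05, 2 had positive and 2 negative changes. Dcun1d5, a factor that helps attach Nedd8 to cullins, read 771, 618 and 702 in XY, against 983, 1030 and 1209 in XX (-0.62 ± 0.16, adjusted p = 0.0481), a call that ended without XY 1 (0.0856), XY 2 (0.153), XY 3 (0.124), XX 2 (0.102) or XX 3 (0.122), with the deposited values (0.0820), no pseudocount (0.0578) or no filter (0.0952), and with the Actb covariate (0.199). Cul3 itself, named here as the family's scaffold, read 738, 633 and 789 in XY, against 666, 771 and 775 in XX, with overlapping groups and a change of -0.04 ± 0.16 (0.893). Cops7b, a subunit of the COP9 signalosome that removes Nedd8, had 0.95 (0.0864), Dcun1d2, also of the Nedd8 ligase family, had -0.44 (0.140) and the Nedd8-conjugating enzyme Ube2f had 0.32 (0.154).

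Of 16 tested kelch genes with other names 2 were higher and 0 lower by limma, and 5 had positive and 1 a negative change at an unadjusted p below 0.05. The median change was 0.27. Hcfc2, a relative of the cell cycle cofactor Hcfc1, read 403, 436 and 473 in XY, against 242, 207 and 208 in XX (0.97 ± 0.15, SE, limma adjusted p = 0.0110), but had 0.14 when its probe sets were averaged (0.584) and missed with the deposited values (0.129), median scaling (0.125) and the Actb covariate (0.0744). Mkln1, a subunit of the CTLH ubiquitin ligase, read 4722, 4486 and 4253 in XY, against 2726, 2926 and 3322 in XX (0.59 ± 0.15, adjusted p = 0.0434). With the deposited values it had 0.24 (0.673) and 0.12 when its probe sets were averaged (0.722), with median scaling it had 0.074 (0.866), and it missed with trimmed mean scaling (0.0509), no pseudocount (0.0517), no filter (0.0885) and the Actb covariate (0.115). The call also ended without XY 1 (0.123), XY 2 (0.130), XY 3 (0.106), XX 2 (0.107) or XX 3 (0.0597). Enc1, a close BTB and kelch relative, had 0.75 (0.0508), and X-linked Hcfc1 had -0.80 (0.0606).

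Other BTB adaptors, which reach Cul3 without kelch repeats, were tested in 25 cases, of which 2 were higher and 1 was lower, with 8 positive and 3 negative changes at an unadjusted p below 0.05. Their median change was 0.37. Btbd1 read 217, 271 and 268 in XY, against 763, 1082 and 786 in XX, and fell by 1.75 ± 0.19 (SE, limma adjusted p = 0.00478), a call that held in all 17 settings that tested it. The BTB GTPase-like gene Rhobtb3 rose by 1.12 ± 0.25 (adjusted p = 0.0321), with XY at 372, 397 and 354 against 119, 246 and 160 in XX. Its call ended without XY 1 (0.0832), XY 2 (0.0968), XY 3 (0.0800) or XX 3 (0.0925), with the deposited values (0.140), median scaling (0.126) and no filter (0.0630). Abtb2 read 691, 949 and 840 in XY, against 568, 465 and 413 in XX, and rose by 0.77 ± 0.19 (0.0414), a call that ended without XY 1 (0.0605), XY 2 (0.130), XY 3 (0.115), XX 2 (0.107) or XX 3 (0.114). Under median scaling it had 0.28 (0.405) and on the deposited values 0.44 (0.327), and it missed with no pseudocount (0.0530), no filter (0.0804) and the Actb covariate (0.224). Kctd7 had 0.86 (0.0750).

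The family's partners and substrates numbered 26 tested genes, 2 of them higher and 0 lower by limma, and 2 had positive and 2 negative changes at an unadjusted p below 0.05. Their median change was -0.06. The histone deacetylase gene Hdac1, whose complex is bound by human KBTBD4, read 256, 280 and 282 in XY, against 146, 148 and 153 in XX (0.83 ± 0.14, SE, limma adjusted p = 0.0126), and lost its call without XY 2 (0.0544) or XY 3 (0.0522), on the deposited values (0.62, 0.190), with median scaling (0.46, 0.192) and with the Actb covariate (0.0639). Eif4ebp1, which encodes the 4E-BP1 held by Klhl25, read 160, 132 and 123 in XY, against 70.5, 48.2 and 63.7 in XX (1.08 ± 0.19, adjusted p = 0.0150), and lost it without XY 1 (0.0521) or XY 2 (0.0504), when its probe sets were averaged (0.50, 0.299) and with the Actb covariate (0.103). The katanin gene Katna1 had -0.44 (0.113) and Nfe2l2, the Nrf2 factor held by the kelch protein Keap1, had -0.39 (0.143).

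**Figure D4:**
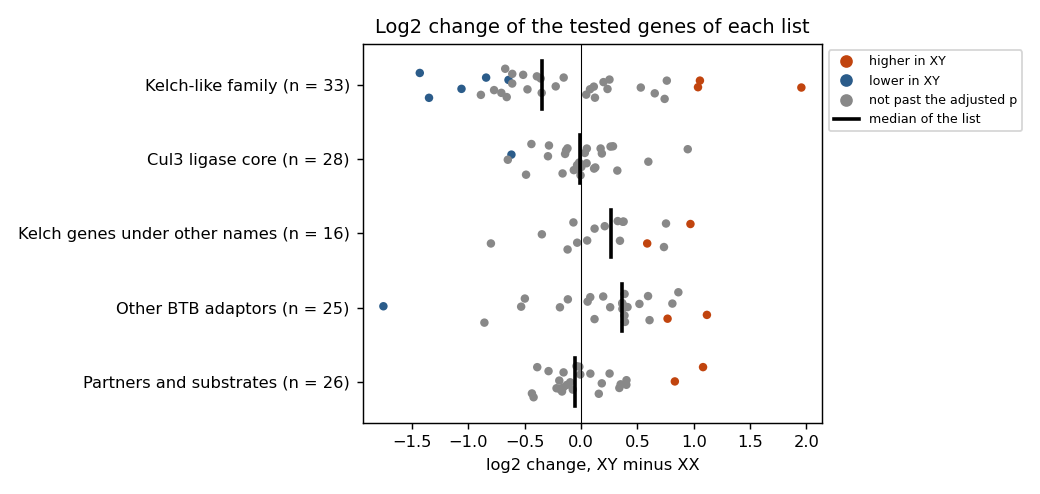
Log2 change, XY minus XX, of every tested gene of the Kelch-like family and of the 4 lists of its partners and relatives. Each gene is 1 point with vertical jitter, orange where higher and blue where lower in XY past the adjusted p. A black bar marks each median. The family's median is -0.35, that of the Cul3 ligase core -0.01 and that of other BTB adaptors 0.37.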

How the data were processed

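The deposited values are linear intensities, 1 for each probe set on each array. MAS5 is the one tool named, per the submitters' processing notes; of its version and target value the sources used here say nothing. The labels' protocols give a 2-cycle labelling with oligo(dT) primers on a 3' expression array. Per the file's values, the authors' intensities had medians of 24.5 to 31.4 and 2% trimmed means of 194 to 332 between arrays. The 6 arrays were therefore quantile-normalized over 45037 probe sets, without 64 control probe sets; a change in total mRNA cannot then be seen.

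Analyses used R 4.3.3 and limma 3.58.1 on log2(normalized intensity + 9), where 9 is the deposited 25th percentile, which understates the changes of dim genes. The array annotation named 34945 probe sets with 1 symbol, 932 with several and 9160 with none, and 34741 of the first matched RefSeq genes of GRCm38.p6, which gave current symbols and chromosomes. After the filter, 22997 probe sets remained, and each gene was read from its brightest one on average. The contrast of XY minus XX was fitted with lmFit and eBayes, and p was adjusted by Benjamini-Hochberg over 12442 genes, at 0.05; 3 arrays a group limit the precision. The labels call them biological replicates from separate females. Of these steps, the limma fit alone was tested on simulated gene values. The normalization, the filter and the choice of probe set were not. Alternatives changed the filter, the scaling, the pseudocount, the averaging of probe sets, the variance trend, a replicate block, the Actb 3' to 5' ratio as a covariate, a threshold of 0.01 and leaving out each array.

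The members, gene lists and tests were chosen with earlier results of these data known. Members named are all those past the threshold, the X-linked ones and those with an unadjusted p below 0.05; other members, and Cul3, Plk1, Aurkb and Aurka, were named after their values were seen. Each list gives its 4 smallest p. The planned printing of proteins was not made, since no protein table was used here; promoter windows were added after the values were seen.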

Additional observations from a re-analysis of the deposited data

How the results depend on the processing

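All 8 called members kept their direction in every setting run. Klhl22 alone passed in all of them; the calls of the others ended in the settings named in the report and, for some, with the replicate block given below, and Kbtbd6, Kbtbd12 and Klhl22 kept theirs when any 1 array was left out. At an adjusted p of 0.01, 2 members were higher (Klhl22 and Kbtbd12) and 1 lower (Kbtbd6), and the lists had 0 calls in the Cul3 core, 0 among kelch genes under other names, 1 among BTB adaptors and 0 among partners, beside 189 genes higher and 101 lower in all. Members higher, lower and their median, main values 3, 5 and -0.35, were: with median scaling 10 lower, median -0.51; with trimmed mean scaling 5 higher, 3 lower, median -0.16; with no filter 2 lower, median -0.077; with a pseudocount of 32 a median of -0.24; with the Actb ratio as a covariate 1 higher, 0 lower (limma), median -0.15. Left-out arrays gave 2 to 4 higher, 1 to 10 lower and medians of -0.36 to -0.15. Over all genes, where 978 were higher and 665 lower (59.5% of calls higher), 472 were higher with the deposited values (47.2%), 482 higher and 1622 lower with median scaling (22.9%), 566 and 347 with no filter, 159 and 77 with the covariate, 1005 lower with a trended variance, and 70.8% of calls were higher with trimmed mean scaling. The median change of all genes was then -0.12 with the deposited values, -0.27 with median scaling and 0.18 with trimmed mean scaling. Left-out arrays gave 282 to 2026 higher and 190 to 1281 lower.

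The replicate numbers of the labels did not pair the arrays: same-numbered XY and XX arrays had deviations from their group means that correlated at -0.10, 0.0010 and -0.043. With the replicate block, 424 genes were higher and 255 lower, 3 members were lower, and the lists had 0 (Cul3 core), 1 (other kelch), 1 (BTB) and 1 (partners) calls. Klhl30 (adjusted p = 0.0519), Klhl13 (0.0820), Klhl1 (0.0503), Dcun1d5 (0.104), Mkln1 (0.112), Rhobtb3 (0.0539), Abtb2 (0.0990) and Hdac1 (0.0524) then did not pass.

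The list counts, in the order Cul3 core, other kelch, BTB adaptors and partners, were 1, 2, 3 and 2 in the main setting. The deposited values gave 0, 0, 1 and 1. For the Cul3 core, median scaling gave 4, no pseudocount 0, no filter 0, the 70th percentile filter 2, a trended variance 3 and the covariate 0. For other kelch genes, no pseudocount gave 1, a pseudocount of 32 gave 5, no filter 1, the 70th percentile filter 5, a trended variance 5 and the covariate 0. For BTB adaptors no filter gave 1 and a trended variance 5, and for partners the mean of probe sets gave 1 and the covariate 0. Left-out arrays gave 0 to 6, 1 to 6, 1 to 6 and 0 to 4. A cause of these moves was not tested, beyond the fewer arrays or genes that some settings hold. The Actb covariate follows the groups in all arrays but XX 1, so its fit separates the 2 poorly.

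Directions reversed in 36 cases, all of genes that did not pass in the main setting. With the deposited values, reversed values were those of Kbtbd11 (-0.11), Kbtbd4 (-0.12), Klhl12 (-0.066), Klhl2 (-0.12), Klhl20 (-0.0058), Ube2f (-0.039) and Plk1 (-0.28). With median scaling, reversed values were those of Kbtbd11 (-0.26), Kbtbd13 (-0.11), Kbtbd4 (-0.28), Klhl11 (-0.096), Klhl12 (-0.23), Klhl2 (-0.28), Klhl20 (-0.15), Ube2f (-0.20) and Plk1 (-0.44). With the Actb covariate, reversed values were those of Kbtbd13 (-0.15), Cul3 (0.043) and Aurka (0.18). With trimmed mean scaling, reversed values were those of Klhl17 (0.11). With probe sets averaged, reversed values were those of Ube2f (-0.041) and Cul3 (0.14). Left-out arrays turned the sign of Kbtbd11 (-0.053 to 0.18), Kbtbd13 (-0.12 to 0.38), Klhl20 (-0.010 to 0.12), Klhl21 (-1.04 to 0.10), Cul3 (-0.11 to 0.053), Plk1 (-0.089 to 0.17), Aurkb (-0.14 to 0.026) and Aurka (-0.14 to 0.064), with the lowest and highest values in brackets. Dim members such as Klhl42, Klhl21 and Klhl36 are limited by signal near the array median.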
